A study of Mus musculus with 12 samples.

Results

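Genes of neutrophils and activated myeloid cells, S100a8, S100a9, Retnlg, Ngp, Csf3r, Clec4e, Slfn4, Acod1, Lcn2 and Il1r2, were followed through 12 RNA-seq libraries of cardiomyocytes isolated from mouse heart. These 10 of the 22584 genes in the count table were chosen by their measured expression, as top loadings of the first principal component of the same 12 libraries. Their differences between libraries are therefore what chose them and are described here without a test. All mice were wild-type C57BL6, and the labels give no age. The 4 groups of 3 libraries were a sham operation with injected saline (sham saline), a sham operation with injected JV001 (sham JV001), the CKD model with saline (CKD saline) and the CKD model with JV001 (CKD JV001). For the CKD model, mice received AngII and a high salt diet and lost 1 kidney (uninephrectomy). The design text gives 12 weeks for both sham groups and for CKD JV001 and no duration for CKD saline. The agent JV001 has no further description in the labels than this code, in a series whose title names telomere recapping by gene therapy in cardio-renal syndrome. Nothing in the labels says whether the libraries of a group came from separate animals, so a p-value here measures the spread between libraries only, which may be technical.

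Neutrophils are short-lived phagocytes made in the bone marrow under the growth factor G-CSF, which acts through the receptor encoded by Csf3r. They carry granule proteins that are made in sequence as the cell matures, and their cytoplasm is rich in the calcium-binding pair S100A8 and S100A9, which form the complex calprotectin. In heart tissue they enter from blood through activated endothelium, and several of the 10 genes are also switched on in macrophages, endothelial or muscle cells by bacterial or interleukin signals. Lcn2 encodes lipocalin 2, which withholds iron from bacteria by binding their siderophores. Acod1 encodes the enzyme that makes itaconate in activated macrophages and neutrophils.

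The promoters of 4 members are shown here because these genes were high in the same libraries and cover a calprotectin gene pair, a granule gene and an activation gene. All 10 members matched by symbol in the RefSeq promoter table, which gives 250 bases before and 50 bases after the start of each gene on build GRCm38.p6, whereas the reads were counted on GRCm39. The S100a8 promoter lies at chr3:90668821-90669120 on the plus strand, and that of S100a9 at chr3:90695672-90695971 on the minus strand. The Ngp promoter lies at chr9:110419558-110419857 and the Acod1 promoter at chr14:103046762-103047061, both on the plus strand. Sequences run 5′ to 3′ along the gene, and capitals mark matches to the 6 motifs searched.
S100a8: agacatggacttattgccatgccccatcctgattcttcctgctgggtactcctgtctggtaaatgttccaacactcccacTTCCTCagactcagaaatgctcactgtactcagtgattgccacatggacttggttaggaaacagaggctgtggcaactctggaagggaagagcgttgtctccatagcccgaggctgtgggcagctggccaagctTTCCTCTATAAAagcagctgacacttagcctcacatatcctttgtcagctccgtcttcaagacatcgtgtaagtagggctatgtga
S100a9: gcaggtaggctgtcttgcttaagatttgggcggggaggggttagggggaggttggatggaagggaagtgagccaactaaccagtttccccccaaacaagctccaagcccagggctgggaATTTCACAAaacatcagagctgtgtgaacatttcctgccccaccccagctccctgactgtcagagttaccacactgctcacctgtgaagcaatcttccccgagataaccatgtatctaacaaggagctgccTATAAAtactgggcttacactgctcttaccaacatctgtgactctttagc
Ngp: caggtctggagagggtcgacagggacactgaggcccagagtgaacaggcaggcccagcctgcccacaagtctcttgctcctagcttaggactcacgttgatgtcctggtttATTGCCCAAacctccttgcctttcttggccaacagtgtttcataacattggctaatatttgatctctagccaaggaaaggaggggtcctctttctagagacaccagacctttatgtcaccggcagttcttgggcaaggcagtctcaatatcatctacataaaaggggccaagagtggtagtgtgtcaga
Acod1: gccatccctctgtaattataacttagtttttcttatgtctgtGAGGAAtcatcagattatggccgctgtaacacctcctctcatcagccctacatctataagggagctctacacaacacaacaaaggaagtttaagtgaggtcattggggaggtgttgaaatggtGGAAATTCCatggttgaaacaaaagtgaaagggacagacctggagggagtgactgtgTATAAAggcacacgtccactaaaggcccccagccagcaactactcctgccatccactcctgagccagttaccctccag

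Both strands were searched, and a match is a description of the letters only. GAGGAA, the core that the myeloid factor PU.1 and other ETS proteins recognise, was in 5 of 10 member promoters (S100a8, Csf3r, Clec4e, Acod1 and Lcn2) and in 28.3% of the 32851 promoters of 300 bases. TTNNGNAAT, a C/EBP site, was in 2 of 10 (S100a9 and Ngp) against 11.5% of all promoters. The TATA box TATAAA was in 5 of 10 (S100a8, S100a9, Clec4e, Slfn4 and Acod1) against 13.6%. In S100a8 the TATA box spanned bases -30 to -25 from the start and directly followed a GAGGAA match on the other strand at -36 to -31. In S100a9 it began at base 1 of the RefSeq start. GGNNTTTCC, part of an NF-kB site, was in Acod1 alone of the 10 (5.82% of all promoters), GAAANNGAA, part of an interferon-stimulated element, in Csf3r alone (8.56%) and TGANTCA, an AP-1 site, in Slfn4 alone (7.81%). Retnlg and Il1r2 held no match in this window. No 2 of these matches overlapped in the promoters printed.

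Library totals ran from 25233561 to 37000337 counts. The first principal component of log2 CPM (counts per 1e6 counts, scaled by TMM factors as all CPM values here, with a prior count of 2) held 52.3% of the variance over 15004 genes that passed a filter on low counts. Library 3 stood apart within both CKD groups, with a score of 138 against 48.0 and 50.3 in CKD JV001, and of 62.5 against -51.5 and -50.1 in CKD saline. Sham saline library 1 also lay apart from its group, at -0.586 against -67.3 and -74.5, with 34.7% of its counts on mitochondrial genes against 18.8% and 19.5%. By absolute loading S100a9 ranked 1, S100a8 2, Slfn4 4, Acod1 6, Clec4e 7, Retnlg 8, Ngp 12, Csf3r 26 and Lcn2 78. Il1r2 did not pass the filter and had no loading. Lcn2, the last member inside, had a loading of 0.0260, next to Btla above it and Batf below it at the same 3 digits. Selp, Serpina3f and Saa3 ranked 3, 5 and 9 and are no members. With each gene scaled to unit variance, 0 of the 9 tested members were among the 100 largest loadings and their median rank was 3164, so the membership is a property of unscaled log2 values.

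Summed over the 10 members, expression was lowest in sham saline and highest in CKD JV001, and 1 library carried most of it. The sum was 3.57, 1.78 and 2.77 CPM in sham saline libraries 1 to 3, and 3.40, 8.16 and 2.73 CPM in sham JV001. It was 5.85, 7.36 and 77.0 CPM in CKD saline, and 22.4, 20.9 and 481 CPM in CKD JV001. Library 3 was thus far above libraries 1 and 2 in both CKD groups, and the group means of 30.1 ± 40.7 and 175 ± 265 CPM (SD, n = 3) had an SD above the mean. CKD JV001 libraries 1 and 2 lay above CKD saline libraries 1 and 2 and below CKD saline library 3. In bulk RNA, fewer cells of a type and less RNA per cell cannot be told apart, nor can more cells and more RNA per cell.

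**Figure D1:**
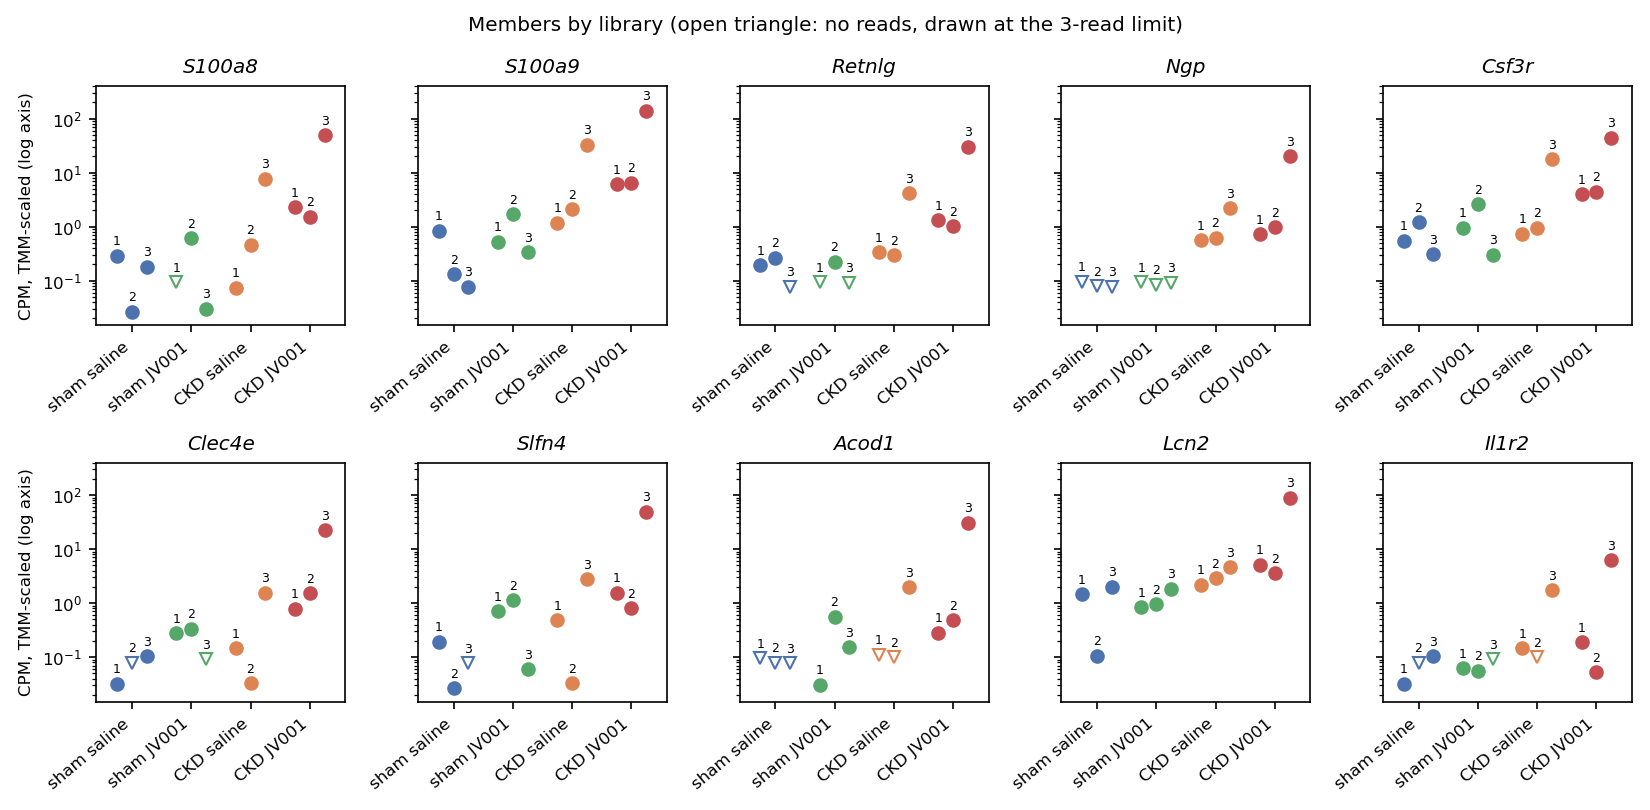
Each panel shows 1 of the 10 member genes, with CPM on a log axis for each of the 12 libraries by group, numbered 1 to 3, and open triangles at the 3-read limit for libraries without a read. Library 3 of both CKD groups stands above the other libraries in every panel except Lcn2 and Clec4e. For Lcn2, CKD JV001 library 1 (5.16 CPM) also exceeds CKD saline library 3 (4.57 CPM). For Clec4e, CKD saline library 3 (1.55 CPM) and CKD JV001 library 2 (1.54 CPM) are level.

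S100a9, the larger subunit of calprotectin, had 26, 5 and 3 reads (sham saline libraries 1 to 3), 17, 60 and 11 (sham JV001), 32, 63 and 824 (CKD saline) and 193, 243 and 4774 (CKD JV001). In CPM these were 0.836, 0.133 and 0.0777, then 0.526, 1.68 and 0.333, then 1.18, 2.08 and 32.7, then 6.11, 6.45 and 140. Every CKD saline library lay above every sham saline library, and every CKD JV001 library above every sham JV001 library. Between the CKD groups the libraries overlapped, since CKD saline library 3 lay above CKD JV001 libraries 1 and 2.

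S100a8, its partner, had 9, 1 and 7 reads (sham saline libraries 1 to 3), 0, 22 and 1 (sham JV001), 2, 14 and 195 (CKD saline) and 73, 58 and 1682 (CKD JV001). The last 6 libraries had 0.0740, 0.462 and 7.75 CPM and 2.31, 1.54 and 49.4 CPM. CKD saline overlapped with sham saline, because CKD saline library 1 held 2 reads. The 2 genes are neighbours in the genome and their products work as a pair. Per length, from the deposited FPKM, S100a9 stood at 1.98 to 3.16 times S100a8 in CKD saline library 3 and the 3 CKD JV001 libraries, at 3.37 times in CKD saline library 2 and at 12.0 times in CKD saline library 1, where S100a8 rests on 2 reads.

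Lcn2 had the highest mean CPM of the members in sham saline, 1.18 ± 0.972 (SD, n = 3), and of the 9 tested the smallest fitted difference between CKD saline and sham saline. It had 45, 4 and 77 reads (sham saline libraries 1 to 3), 27, 34 and 61 (sham JV001), 59, 87 and 115 (CKD saline) and 163, 136 and 3028 (CKD JV001). The CPM values were 1.45, 0.106 and 1.99, then 0.835, 0.953 and 1.85, then 2.18, 2.87 and 4.57, then 5.16, 3.61 and 88.9. In CPM each CKD group lay wholly above its sham group. By FPKM sham saline library 3, at 2.44, lay above CKD saline library 1, at 2.37. Unlike the other members, Lcn2 in CKD saline library 3 was only 1.79 times its level in CKD saline libraries 1 and 2 (95% exact counting interval 1.39 to 2.31), while CKD JV001 library 3 was 20.6 times (18.3 to 23.3) libraries 1 and 2 of its group. Such intervals cover counting error within these libraries only.

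Ngp, a granule protein made by maturing neutrophils in the marrow, was the member without a read in any sham library. It had 15, 19 and 55 reads (CKD saline) and 23, 37 and 688 (CKD JV001). A count of 0 allows up to 3 reads, or 0.0777 to 0.0964 CPM in the 6 sham libraries. Against that floor over the 6 sham libraries together, the 6 CKD libraries were 313-fold higher (lower limit 254-fold). CKD saline libraries 1 and 2 were 21.2-fold above the floor of the 3 sham saline libraries (lower limit 16.4-fold). Ngp was thus well above its sham level also outside library 3 of the CKD groups. CKD JV001 libraries 1 and 2 were at 1.46 times CKD saline libraries 1 and 2, with a counting interval of 0.943 to 2.29.

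Retnlg, a resistin-like protein secreted by myeloid cells, had 6, 10 and 0 reads (sham saline libraries 1 to 3), 0, 8 and 0 (sham JV001), 9, 9 and 104 (CKD saline) and 42, 38 and 1035 (CKD JV001). Its level in library 3 was 30.4 CPM with CKD JV001 and 4.13 CPM with CKD saline. In CPM both CKD groups lay wholly above their sham groups, though CKD saline only narrowly. CKD saline library 2, on 9 reads, had 0.297 CPM, and sham saline library 2, on 10 reads, had 0.265 CPM. By FPKM these 2 libraries stood the other way, at 0.441 and 0.445. By FPKM the share of Retnlg among the 10 members was at most 8.53% in the CKD libraries and 6.62% or more in 5 of these 6.

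Csf3r, the receptor for G-CSF, had 17, 46 and 12 reads (sham saline libraries 1 to 3), 31, 93 and 10 (sham JV001), 20, 29 and 444 (CKD saline) and 125, 167 and 1497 (CKD JV001). Its CPM values were 0.546, 1.22 and 0.311, then 0.959, 2.61 and 0.303, then 0.740, 0.957 and 17.6, then 3.96, 4.43 and 43.9. CKD saline libraries 1 and 2 lay within the sham range, and all 3 CKD JV001 libraries lay above it. Csf3, which encodes G-CSF itself, had 424 reads in CKD JV001 library 3, 1 in sham JV001 library 1 and 0 in the other 10 libraries.

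Clec4e, which encodes Mincle, a receptor for mycobacterial glycolipid and for a protein released by dead cells, had 1, 0 and 4 reads (sham saline libraries 1 to 3), 9, 12 and 0 (sham JV001), 4, 1 and 39 (CKD saline) and 25, 58 and 769 (CKD JV001). The CKD libraries had 0.148, 0.0330 and 1.55 CPM with saline and 0.792, 1.54 and 22.6 CPM with JV001. CKD saline overlapped with sham saline, and CKD JV001 did not overlap with sham JV001.

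Il1r2, a decoy receptor that binds interleukin-1 without signalling, had the fewest reads of the 10. It had 1, 0 and 4 reads (sham saline libraries 1 to 3), 2, 2 and 0 (sham JV001), 4, 0 and 44 (CKD saline) and 6, 2 and 213 (CKD JV001). Outside library 3 of both CKD groups no library had more than 6 reads, so no order can be read among those 10 libraries. The signalling receptor Il1r1, its neighbour in the genome, had 123 to 858 reads in 11 libraries and 4633 in CKD JV001 library 3.

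Slfn4, a schlafen gene of activated myeloid cells, had 6, 1 and 0 reads (sham saline libraries 1 to 3), 23, 40 and 2 (sham JV001), 13, 1 and 70 (CKD saline) and 49, 30 and 1666 (CKD JV001). The sham JV001 libraries had 0.711, 1.12 and 0.0606 CPM and the CKD JV001 libraries 1.55, 0.796 and 48.9 CPM. These groups overlapped, because sham JV001 library 2 lay above CKD JV001 library 2. Acod1 had 0 reads in each sham saline library, 1, 20 and 5 (sham JV001), 0, 0 and 49 (CKD saline) and 9, 18 and 1049 (CKD JV001). Sham JV001 library 2, at 0.561 CPM, also lay above CKD JV001 libraries 1 and 2, at 0.285 and 0.477 CPM. These 2 intracellular activation genes were thus the members, of the 9 tested, whose CKD JV001 and sham JV001 libraries overlapped.

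The first comparison set CKD saline against sham saline. In CPM, 4 of the 9 tested members (S100a9, Retnlg, Ngp and Lcn2) had every CKD saline library above every sham saline library. By FPKM, Retnlg and Lcn2 did not. Over all tested genes 4.12% did in CPM. The members' share was used by the choice of members, and nothing is read from it. edgeR's quasi-likelihood test with Benjamini-Hochberg adjustment over 15004 genes called 0 genes (0% of those tested), with 743 at an unadjusted p under 0.05, and DESeq2 called 54. The fitted log2 fold changes of the 9 members ran from 1.44 (SE 1.15) for Lcn2 to 8.20 (SE 2.49) for Ngp, with a median of 3.94 against 0.01 over all tested genes. Sham saline held no read of Ngp or Acod1, and with these 2 at their bounds the median was also 3.94. The median was 4.11 without sham saline library 1. Without library 3 of both CKD groups the median was 1.06, and S100a9 had 2.30 (SE 0.87), Lcn2 1.12 (SE 0.77), S100a8 0.74 (SE 1.41) and Csf3r 0.31 (SE 0.79). CKD saline libraries 1 and 2, summed, were 5.24 times the sham saline libraries for S100a9 (3.51 to 7.99), 2.17 times for Lcn2 (1.70 to 2.78) and 1.22 times for Csf3r (0.836 to 1.78).

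The second comparison, CKD JV001 against CKD saline, asked how the members differed with JV001 inside the model. In 0 of 9 tested members did the groups separate, against 8.22% of all tested genes with every CKD JV001 library higher. The fitted log2 fold changes were all positive, from 1.44 (SE 1.26) for Csf3r to 4.04 (SE 2.05) for Acod1, with a median of 2.79. Without CKD saline library 3 the median was 5.12, and without CKD JV001 library 3 it was -0.44, with 3 members positive and 6 negative. Over all genes edgeR called 0 (0%), with 2707 at an unadjusted p under 0.05 and a smallest adjusted p of 0.276, and DESeq2 called 67. Without library 3 of both groups the members' log2 fold changes ran from 0.50 (SE 0.92) for Ngp and 0.77 (SE 0.84) for Lcn2 to 3.63 (SE 1.49) for Clec4e and 6.68 (SE 2.33) for Acod1, whose value depends on the prior count since those CKD saline libraries held no read.

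Same-numbered libraries of the 2 CKD groups deviated together from their group means, so the numbers were also entered as a block. Library 1, however, did not match its own number best. With library 3 apart in both groups, this check cannot show that libraries 1 and 2 are paired by number. The block in a fit of all 12 libraries called 0 genes, and the block in a fit of these 2 groups alone, an alternative chosen after the data had been seen, is given here and for the gene lists. Under that block S100a9 had a log2 fold change of 2.04 (SE 0.18), S100a8 2.77 (SE 0.46), Csf3r 1.92 (SE 0.25), Retnlg 2.39 (SE 0.34), Clec4e 3.81 (SE 0.50), Slfn4 3.41 (SE 0.60), Acod1 4.27 (SE 0.48), Ngp 1.60 (SE 0.70) and Lcn2 1.97 (SE 0.87). In CPM each CKD JV001 library lay above the CKD saline library of the same number for each tested member, which is a description only. The members were chosen on the component along which library 3 stood apart, and the block takes up that same split. The SEs under the block are therefore no test of the members. In the block fit 10.4% of 14289 tested genes were called higher and 9.56% lower, where the fit without a block called 0.

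**Figure D2:**
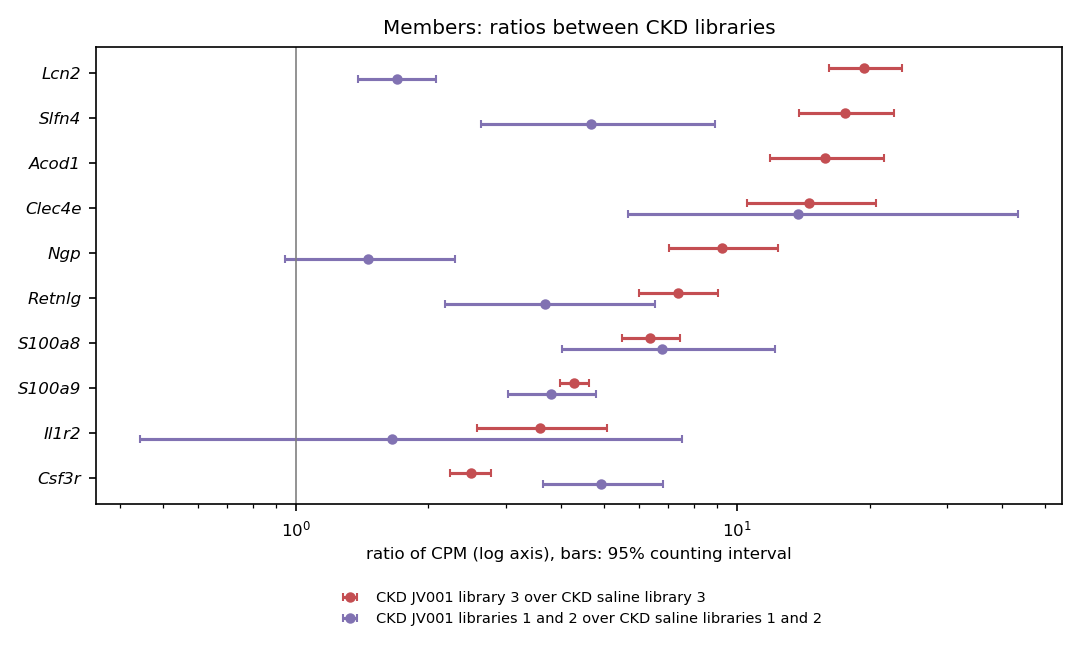
Each point is the ratio of CPM of 1 member between the libraries named in the legend, on a log axis, with its 95% exact counting interval. Acod1 has 1 point, since CKD saline libraries 1 and 2 held no read of it. The ratios of CKD JV001 library 3 to CKD saline library 3 run from 2.49 for Csf3r to 19.5 for Lcn2, and those of CKD JV001 libraries 1 and 2 to CKD saline libraries 1 and 2 from 1.46 for Ngp to 13.7 for Clec4e.

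The ratio of CKD JV001 library 3 to CKD saline library 3 was computed for each member, 1 library against 1, with no replicate check. CKD JV001 library 3 was above CKD saline library 3 by 2.49 times for Csf3r (counting interval 2.24 to 2.78), 3.58 for Il1r2, 4.28 for S100a9, 6.37 for S100a8, 7.35 for Retnlg and 9.24 for Ngp. The ratio was 14.6 for Clec4e, 15.8 for Acod1, 17.6 for Slfn4 and 19.5 for Lcn2 (16.1 to 23.6), where the median over 14740 genes with a read in both was 0.935. Csf3r and Il1r2 had the lowest ratios, and Clec4e, which like them encodes a receptor, Acod1, Slfn4 and Lcn2 the highest. Per length, Acod1 stood at 1.25 times Csf3r in CKD JV001 library 3 and at 0.198 times in CKD saline library 3, and Slfn4 at 1.29 and 0.183 times. Lcn2 stood at 0.390 times S100a9 in the first and at 0.0857 times in the second.

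Between CKD JV001 library 3 and libraries 1 and 2 of its own group the ratios ran from 10.4 for Csf3r (9.19 to 11.9) to 79.0 for Acod1 (54.0 to 120), with a median of 24.7. Slfn4 had 42.9 and Il1r2 54.1, the latter on 8 reads in libraries 1 and 2. S100a8, S100a9, Retnlg, Ngp and Lcn2 lay close together, from 20.6 to 26.3. In CKD saline, library 3 over libraries 1 and 2 gave 27.8 for S100a8, 20.6 for Csf3r, 19.8 for S100a9, 13.2 for Retnlg, 3.68 for Ngp (2.36 to 5.83) and 1.79 for Lcn2. The order of the members therefore differed between the groups: Lcn2 and Ngp had the smallest ratios in CKD saline, and Csf3r had the smallest in CKD JV001. Acod1 had no read in CKD saline libraries 1 and 2, so its ratio there was 37.2-fold against the 3-read floor, with a lower limit of 29.1-fold.

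In the comparison of sham JV001 with sham saline the members were low and mixed. Fitted log2 fold changes ran from -0.92 (SE 2.05) for Retnlg to 6.07 (SE 4.12) for Acod1, with Ngp at 0 reads in both groups and a median of 0.90, or 1.12 over 8 members with Acod1 at its bound and Ngp left out. Only Acod1 of the 9 had every sham JV001 library above every sham saline library, on 1, 20 and 5 reads against 0, 0 and 0, beside 5.69% of all tested genes. Without sham JV001 library 2, the highest sham library for the summed members, the median was 0.09. edgeR called 0 genes (0%) in this contrast, with 426 at an unadjusted p under 0.05, and DESeq2 called 3 (Tcf23, Tmem100 and Tmem164), none a member.

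CKD JV001 against sham JV001 gave the largest differences. In 7 of 9 tested members every CKD JV001 library lay above every sham JV001 library, the exceptions being Slfn4 and Acod1, beside 22.9% of all tested genes. Fitted log2 fold changes ran from 3.75 (SE 1.39) for Csf3r to 10.91 (SE 2.42) for Ngp, with a median of 5.37, or 5.37 with Ngp at its bound, and of 2.47 without library 3 of both CKD groups. Over all genes edgeR called 3 (0.02%), all lower and none a member or list gene, namely Cenpf, Tmem100 and Tmem82, chosen for naming after their values were seen. CKD JV001 libraries 1 and 2 alone, over the 3 sham JV001 libraries, were at 14.6 times for Retnlg (7.05 to 34.9), 8.30 for S100a8, 7.22 for S100a9, 5.76 for Clec4e, 3.57 for Lcn2 and 3.18 for Csf3r. They were at 1.77 times for Slfn4 and 1.51 for Acod1 (0.850 to 2.70), while Ngp was 29.2-fold above the 3-read floor, with a lower limit of 23.0-fold.

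The interaction, which asks whether the difference with JV001 was larger in the CKD model than in sham, had a median of 1.79 over the 9 members and called 0 genes of all tested (0%), with 567 at an unadjusted p under 0.05. Its median was -1.05 without CKD JV001 library 3 and 3.66 without CKD saline library 3. Lcn2 had 3.31 (SE 1.62) and Acod1, without a read in sham saline, -2.03 (SE 4.13). Neither sham group held a read of Ngp, so its value of 2.70 cannot be estimated, though the median of 1.79 counts it. The comparisons share control libraries, so their values for the members are not separate results.

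Per length, from the deposited FPKM, S100a9 was the most abundant member in CKD JV001 at 104 ± 159 FPKM (SD, n = 3), followed by S100a8 at 48.6 ± 75.2, Lcn2 at 40.9 ± 61.5 and Retnlg at 19.3 ± 29.8 FPKM. Ngp had 6.75 ± 10.3, Slfn4 4.59 ± 7.42, Acod1 4.37 ± 7.29, Csf3r 4.04 ± 5.33, Clec4e 2.96 ± 4.41 and Il1r2 0.868 ± 1.42 FPKM. S100a9 stood at 1.98, 3.13 and 2.12 times S100a8 in CKD JV001 libraries 1 to 3, while Lcn2 exceeded S100a8 in libraries 1 and 2 but not in library 3. The SDs lay above the means, but members share the same libraries, so this spread does not measure differences between neighbours in the order. Within a library the order is not touched by that spread, and S100a9 made up 44.0% of the members' summed FPKM in CKD JV001 library 3, 41.5% and 49.5% in libraries 1 and 2, and 60.8% in CKD saline library 3. Lcn2 made up 17.1% in CKD JV001 library 3, 21.5% and 17.0% in libraries 1 and 2, 39.9% and 34.5% in CKD saline libraries 1 and 2 and 5.22% in CKD saline library 3. Other shares differed within CKD JV001: Acod1 made up 1.96% in library 3 against 0.392% and 0.743% in libraries 1 and 2, and Csf3r 1.56% against 3.04% and 3.85%.

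Genes with profiles like the members were found by the root mean square difference of centred log2 CPM over the 12 libraries, which share the same library 3 contrasts. Ccr1, a chemokine receptor, was nearest to the mean of the 9 tested members at 0.59, against a median of 2.36 over all genes searched. Serpina3n, an acute-phase protease inhibitor, followed at 0.72, Samsn1, an adaptor of blood cells, and Trem1, an amplifying receptor of neutrophils and monocytes, at 0.77, and Fgr, a Src-family kinase of myeloid cells, at 0.78. Pfkfb3, which promotes glycolysis, had 0.81, the cytokine receptor chain Csf2rb 0.84, Tifa 0.86, the Mincle partner Clec4d 0.88 and the endothelial adhesion gene Vcam1 0.89. Among these Pfkfb3 reached 1328 CPM in CKD JV001 library 3 against 33.7 in CKD saline library 3, and Vcam1 632 against 44.9 CPM.

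For single members, Ngp was nearest to Chil3 (0.79), Retnlg to the chemokine receptor Cxcr2 (0.74), Csf3r to Ccr1 (0.57), both S100 genes to Fgr (0.91 and 0.95), Clec4e and Acod1 to Trem1 (0.77 and 0.96), Slfn4 to Ms4a6d (0.86) and Lcn2 to Sting1 (0.73). Chil3, a secreted chitinase-like protein of myeloid cells, matched Ngp in having no read in the 6 sham libraries, with 6, 9 and 19 reads (CKD saline) and 58, 56 and 256 (CKD JV001). Among members, Clec4e and Slfn4 were the closest pair at 0.91 and Ngp and Acod1 the farthest at 1.83.

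The neighbours of the members in the RefSeq gene order on GRCm38.p6 gave a further view. S100a8 and S100a9 adjoin, as do Clec4e and Clec4d, Slfn4 and its family genes Slfn1 and Slfn3, Retnlg and Retnla, and Il1r2 and Il1r1. Clec4d, which pairs with Mincle, had 1, 1 and 0 reads (sham saline libraries 1 to 3), 11, 19 and 12 (sham JV001), 13, 6 and 87 (CKD saline) and 54, 50 and 413 (CKD JV001). Retnla, by contrast, had 115, 58 and 15 reads in sham saline and 107, 162 and 180 in CKD JV001, and its library 3 did not stand apart. Unrelated neighbours such as Ptges2 beside Lcn2 (642 to 1982 reads) and Mrps15 beside Csf3r (612 to 1800 reads) were lowest in CKD JV001 library 3. Slfn4 and the other schlafen genes are similar in sequence, so where the counting could split reads between them their values are uncertain.

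Around the members, 13 lists of related genes held 133 symbols that are no member, of which 126 were found and 94 passed the filter. edgeR called 0 of these 94 in each of the 5 contrasts. In CKD JV001 against CKD saline, 90 of 94 had a positive log2 fold change, where 51.4% of all tested genes did, with a median of 1.85 against 0.02 and a smallest adjusted p of 0.276. Every CKD JV001 library lay above every CKD saline library in 29 of 94, beside 8.22% of all tested genes. In CKD JV001 against sham JV001, 88 were positive with a median of 2.25, a smallest adjusted p of 0.0667 and 57 of 94 not overlapping, beside 22.9% of all tested genes. In CKD saline against sham saline, 76 were positive with a median of 0.70 and a smallest adjusted p of 0.809. In sham JV001 against sham saline it was 73, with a median of 0.52, a smallest adjusted p of 0.9997, and in the interaction 82, with a median of 1.13 and 0.840.

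For CKD JV001 against CKD saline the calls turned on library 3 of each group. With the replicate block in a fit of the 2 groups, edgeR called 54 of 90 list genes higher and 3 lower, beside 10.4% and 9.56% of all tested genes. Without the block it called 0 list genes. Each adjusted p given below with the block thus stands beside 0.276 or more in the fit of 12 libraries. In the same fit 9 of 9 macrophage and 7 of 7 fibroblast markers were called higher and 10 of 10 ventricular cardiomyocyte markers lower, and their part in the list calls was not tested. Without library 3 of both CKD groups it called 29 of 90 higher and 3 lower, where 9.77% of 15285 tested genes were called higher and 10.1% lower. Each list count below stands beside the share over all tested genes in the same fit. Counts of 0 or 1 are not read as results about a list. CKD saline libraries 1 and 2 were the most alike pair of the series, with a median chi-square per gene of 2.26 where counting alone gives 0.455, and the fits without library 3 take their CKD saline spread from this pair alone. The 3 genes called lower in the block fit were Sod2, Bsg and S100a1. Sod2 is the mitochondrial superoxide dismutase, Bsg encodes basigin, a partner of S100A9 and a chaperone of lactate carriers, and S100a1 is the S100 protein of cardiac muscle. They fell by 0.57, 0.64 and 0.66 on the log2 scale there (adjusted p 0.0333, 0.0178 and 0.0161).

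**Figure D3:**
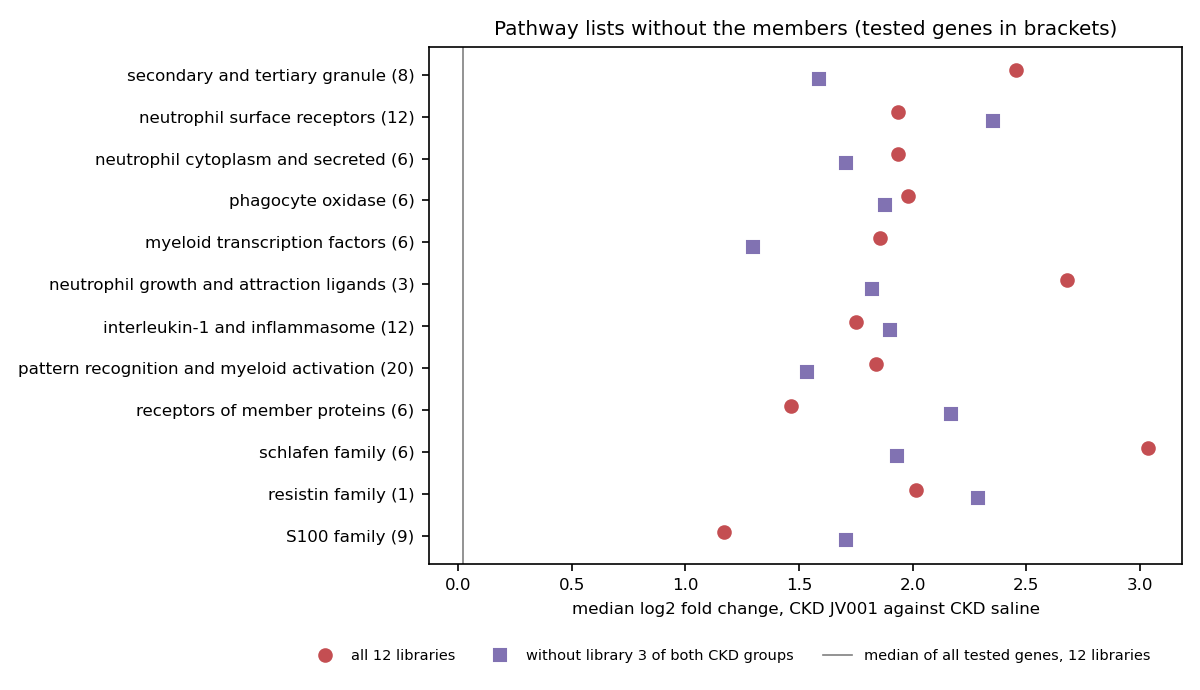
Each row is 1 list of related genes, with the median log2 fold change of its tested genes in CKD JV001 against CKD saline, as circles for all 12 libraries and squares without library 3 of both CKD groups. The grey line is the median of all tested genes, and the circles and squares lie to the right of it, at 0.02, in the 12 lists with a tested gene.

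Of the primary granule genes, which are made by immature precursors, 0 of 5 found passed the filter: Mpo had 1 read in CKD JV001 library 1 and 1 in library 3 and none elsewhere, Elane had 4 in CKD saline library 3 and none elsewhere, and Prtn3 and Prss57 had at most 8 and 5 reads. Genes of the secondary and tertiary granules were detected, 8 of 11 passing the filter, with a median log2 fold change of 2.45 in CKD JV001 against CKD saline or 1.36 with the replicate block, where 4 of 8 were called higher. In that list 0 of 7 were called without library 3 of both CKD groups, beside 9.77% of all tested genes higher and 10.1% lower. Hp, haptoglobin, was at 0.666, 0.759 and 5.48 CPM in CKD saline and 4.65, 3.82 and 38.8 CPM in CKD JV001, with a log2 fold change of 2.69 (SE 0.21, edgeR adjusted p 0.0113) under the block and 2.78 (SE 1.17, adjusted p 0.276) without it. Mmp8, neutrophil collagenase, had 797 reads in CKD JV001 library 3 and at most 56 elsewhere. Ltf, lactoferrin, had 1817 reads in sham saline library 1, more than in any other library, and 372 in CKD JV001 library 3.

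Surface receptors and adhesion genes of neutrophils had 12 of 18 genes tested and 8 of 12 called higher under the block, with a median of 2.11 there and 1.94 without it, and 4 of 10 were called higher without library 3 of both CKD groups. Itgam, which encodes the integrin chain CD11b, was at 1.92, 2.24 and 13.1 CPM in CKD saline and at 9.47 to 43.2 CPM in CKD JV001. It had 2.17 (SE 0.22, adjusted p 0.0114) under edgeR with the block and 1.93 (SE 0.81, adjusted p 0.276) without it. C5ar1, the receptor of complement C5a, was at 2.30, 0.858 and 6.87 CPM and 8.96, 8.14 and 47.1 CPM. It had 2.66 (SE 0.29, adjusted p 0.0114) with the block and 2.68 (SE 0.85, adjusted p 0.276) without it. Cxcr2, the receptor that leads neutrophils out of marrow, had 7, 7 and 108 reads (CKD saline) and 17, 22 and 257 (CKD JV001). Ly6g, the usual surface marker of mouse neutrophils, had 9 reads in CKD saline library 3, 78 in CKD JV001 library 3 and 0 in the other 10 libraries.

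The genes of the oxidase that makes superoxide in phagocytes were called higher in 6 of 6 cases under the block, in 0 of 6 without it and 4 of 6 without library 3 of both groups. Cybb, its membrane catalytic chain, was at 3.92, 3.50 and 14.9 CPM in CKD saline and 14.2, 14.5 and 56.4 CPM in CKD JV001 (log2 fold change 1.96, SE 0.14, edgeR adjusted p 0.0113 with the block). Cyba, its partner, changed less, by 0.70 (SE 0.13, adjusted p 0.0254), and is also expressed outside phagocytes. These genes are shared by neutrophils and macrophages.

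Among cytoplasmic and secreted proteins of neutrophils 6 of 11 found genes were tested and 3 of 6 called higher under the block and 2 of 6 without library 3 of both CKD groups, including Wfdc17 at 2.62 (SE 0.33, adjusted p 0.0135). G0s2, an inhibitor of fat breakdown that cardiac muscle also expresses, was at 29.8, 30.7 and 43.8 CPM in CKD saline and 46.8, 39.8 and 18.1 CPM in CKD JV001, and its log2 fold change was 0.0051 (SE 0.45) without the block and -0.0551 (SE 0.37) with it, so its sign differs between these fits. Transcription factors of myeloid cells had 6 of 8 tested, and 4 of 6 were called higher under the block: Cebpa, Cebpd, Spi1, which encodes PU.1, and Irf8. Only Spi1, 1 of 6, was called higher without library 3 of both CKD groups, beside 9.77% of all tested genes. Cebpd was at 11.3, 12.6 and 27.5 CPM in CKD saline and 36.1, 29.7 and 333 CPM in CKD JV001. Cebpb had a log2 fold change of 0.29 (SE 0.26, edgeR adjusted p 0.482) without the block and -0.10 without CKD JV001 library 3, and Cebpe, which drives late granule genes in marrow, had at most 1 read in any library.

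The ligands that call neutrophils had 3 of 9 genes tested and 2 of 3 called higher under the block, and 1 of 3 without library 3 of both CKD groups. Cxcl1 was at 5.37, 5.05 and 19.1 CPM in CKD saline and 21.1, 16.5 and 152 CPM in CKD JV001, with 2.25 (SE 0.30, adjusted p 0.0143) in edgeR with the block. Cxcl2 was at 1.74, 1.78 and 7.31 CPM and 9.91, 8.28 and 64.9 CPM, with 2.67 (SE 0.25, adjusted p 0.0113). Of interleukin-1 and inflammasome genes 6 of 11 tested were called higher under the block, Il1b, Il1r1, Il33, Casp1, Casp4 and Gsdmd, and 4 of 12 without library 3 of both CKD groups. Il1r1 had 2.08 (SE 0.24, adjusted p 0.0119) and Gsdmd, which forms pores in the membrane, 1.64 (SE 0.29, adjusted p 0.0227).

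Pattern recognition and activation genes had 13 of 20 called higher and 1 lower under the block, and 5 of 20 higher and 1 lower without library 3 of both CKD groups. Nfkbia, the inhibitor induced by NF-kB, was at 29.3, 27.6 and 107 CPM in CKD saline and 67.0, 66.7 and 459 CPM in CKD JV001, with 1.54 (SE 0.23, adjusted p 0.0165). Sod2 was at 533, 529 and 278 CPM and 331, 327 and 216 CPM, lowest in CKD JV001 library 3. Of the receptors that bind member proteins, 1 of 5 was called higher and 1 lower under the block, beside 10.4% and 9.56% of all tested genes. Without library 3 of both CKD groups 1 of 6 was called higher and 1 lower, beside 9.77% and 10.1%. Tlr4, which S100A8 and S100A9 engage, had 0.66 (SE 0.17, adjusted p 0.0488) and Bsg -0.64 (SE 0.10, adjusted p 0.0178) under edgeR with the block. Tlr4 lay between 9.51 and 21.2 CPM in the 12 libraries, a narrow range beside the members.

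Relatives of the members were read by family. Without library 3 of both CKD groups 3 of 5 schlafen genes, 0 of 1 resistin and 4 of 9 S100 genes were called higher, beside 9.77% of all tested genes. In that fit 1 of 9 S100 genes was called lower, beside 10.1% of all tested genes. Of the schlafen genes 4 of 5 were called higher under the block, with Slfn2 at 2.76 (SE 0.37, adjusted p 0.0143) and Slfn5 at 1.37 (SE 0.19, adjusted p 0.0150). Slfn2 had 60, 90 and 278 reads (CKD saline) and 435, 422 and 4535 (CKD JV001). Retnla, of the resistin family, had 2.09 (SE 0.34, adjusted p 0.0187), and Retn had at most 6 reads in a library. In the S100 family 3 of 8 were called higher (S100a4, S100a10 and S100a11) and S100a1 lower. S100a1 was at 726, 724 and 408 CPM in CKD saline and 510, 488 and 214 CPM in CKD JV001, whereas S100a16 lay between 17.3 and 44.0 CPM in the 12 libraries.

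Markers of several other cell types differed between the libraries too, and not all followed the members. The 10 ventricular cardiomyocyte markers had a mean of 12.51 to 12.90 log2 CPM in sham saline, 12.63 to 12.76 in sham JV001, 12.77, 12.78 and 11.94 with CKD saline, and 12.07, 12.09 and 10.92 with CKD JV001, so the labelled cell type was present in each library and lowest where the members were highest. The 9 macrophage markers, all detected in each library, summed to 27.2 to 90.5 CPM in sham saline, 52.8 to 179 in sham JV001, 62.4 to 315 in CKD saline and 297 to 660 CPM in CKD JV001. The 7 fibroblast markers summed to 118 to 400, 224 to 447, 217 to 798 and 933 to 1303 CPM in the same order of groups, and the 7 endothelial markers to 325 to 1202, 838 to 912, 636 to 2204 and 1744 to 1981 CPM. The 6 monocyte markers summed to 5.83 to 20.1, 16.2 to 40.5, 15.4 to 75.7 and 65.3 to 155 CPM. Erythroid genes reached 666 CPM in CKD saline library 3 and 335 CPM in CKD JV001 library 3, against 10.3 to 57.2 CPM in the sham libraries, so they were higher where the members were lower of these 2. B cell markers summed to 7.98 CPM in CKD saline library 3 and to 5.64 to 6.55 CPM in CKD JV001. Platelet markers summed to 14.7 CPM in CKD saline library 3 and 9.75, 10.2 and 20.8 CPM in CKD JV001. Mast cell markers summed to at most 9.42 CPM outside CKD JV001 and were highest in its library 3, and T and NK cell markers to at most 2.00 CPM in any library. Their part in the members' levels was not tested.

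**Figure D4:**
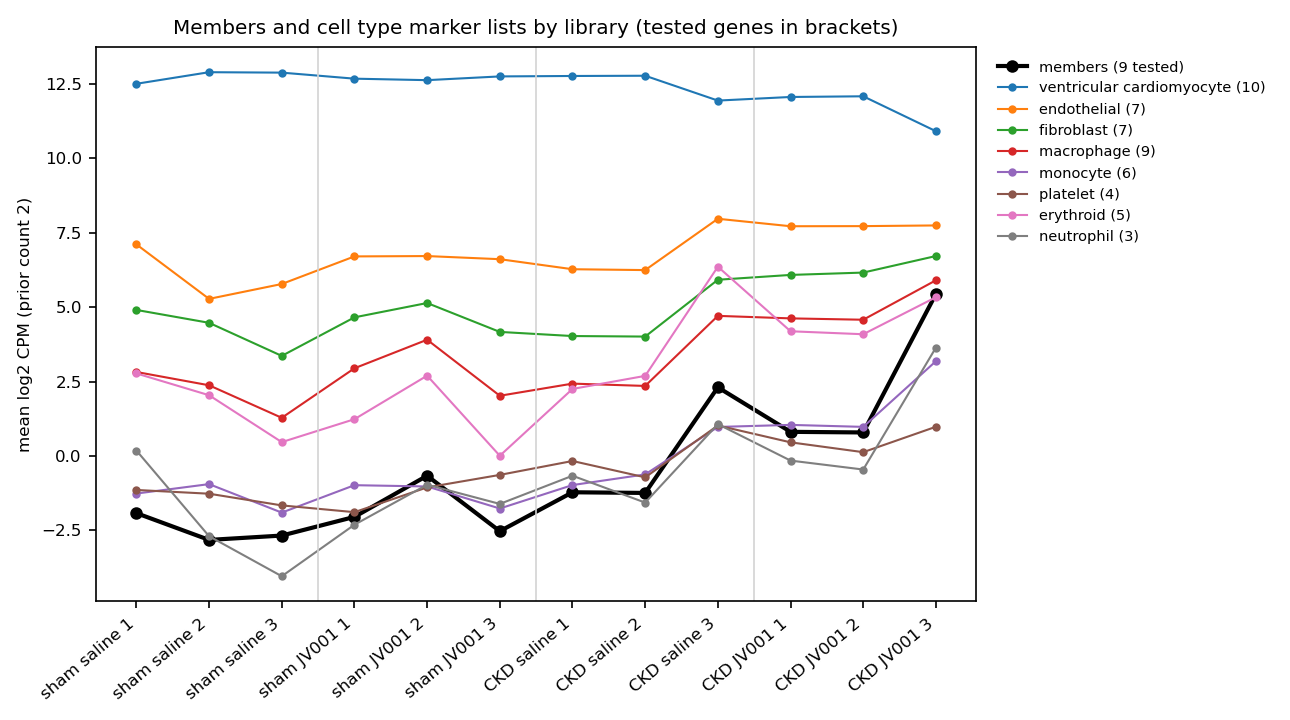
Mean log2 CPM of the 9 tested members (black) and of cell type marker lists (colours) is plotted for each of the 12 libraries, and lines only join points of 1 list. The ventricular cardiomyocyte level is lowest in CKD JV001 library 3 (10.92), where the neutrophil level (3.64) and the macrophage level (5.91) are highest.

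Of the 10 neutrophil markers, which share no gene with the members, 1 to 4 were detected in the sham saline libraries, 3 to 6 in sham JV001, 4 to 10 in CKD saline and 6 to 10 in CKD JV001. All 10 had a read in library 3 of both CKD groups. They summed to 0.207 to 58.9 CPM in sham saline, 2.47 to 6.57 in sham JV001, 1.02 to 10.2 in CKD saline and 5.19 to 63.4 CPM in CKD JV001, the sham saline maximum being Ltf in library 1. Only 3 of them (Cxcr2, Mmp8 and Ltf) passed the filter. Their mean was 1.07 log2 CPM in CKD saline library 3 and 3.64 in CKD JV001 library 3. Markers of eosinophils and basophils summed to at most 0.323 CPM in any library. The share of counts on genes of the mitochondrial genome ran from 18.8% in sham saline library 2 to 38.5% in CKD saline library 3, with 37.7% in CKD JV001 library 3, and its part in these values was not tested.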

How the data were processed

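RNA-seq counts per gene were deposited by the authors for 12 mouse cardiomyocyte libraries in 4 groups of 3, made from polyA RNA. Reads were trimmed with fastp, aligned with HISAT2 to GRCm39 and counted with HTSeq, per the submitters' processing notes, with tool versions not given in the sources used here. FPKM, deposited beside these counts and computed from them by the authors with 1 length per gene, serves only for levels between genes and for alternatives. Counts were tested with edgeR 4.0.16 in R 4.3.3 (quasi-likelihood test, TMM scaling, all 4 groups in 1 fit, filterByExpr with a minimum count of 10, Benjamini-Hochberg threshold 0.05). The script was tested on simulated data.

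Totals of 25233561 to 37000337 counts per library make 3 counts, the limit that a count of 0 allows, worth 0.0777 to 0.119 CPM. Counting intervals are exact and at 95%, and cover counting error only. No 2 libraries of a group agreed within sampling noise. The members and gene lists were chosen with earlier results of these data known. Of each list the text names the 2 genes highest in mean CPM where no gene was called, all members, and the 10 nearest profiles, and other genes given with values were chosen after their values were seen. Same-numbered libraries of CKD JV001 and CKD saline correlated in their deviations at 0.296, 0.289 and 0.492, all over 0.1, and the pairing comes from this check, not from the labels. Libraries 2 and 3 matched their own number best, and library 1 did not. Since library 3 stood apart in both groups, the check cannot tell a pairing of libraries 1 and 2 from that split. Alternatives were RLE scaling, no filter and a stricter filter (at least 1 CPM in 3 libraries, with 10 reads on average), DESeq2 1.42.0, limma 3.58.1 on log2(FPKM + 1) and log2(FPKM + 0.1) with a mean FPKM of at least 0.5, fits of the compared groups only, the replicate block, and leaving out libraries.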

Additional observations from a re-analysis of the deposited data

How the results depend on the processing

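The members' differences rest largely on library 3 of the CKD groups, and their levels in the other libraries rest on few reads. Leaving out 1 library at a time, the members' median log2 fold change ran from 1.07 (without CKD saline library 3) to 4.42 in CKD saline against sham saline, from -0.44 (without CKD JV001 library 3) to 5.12 (without CKD saline library 3) in CKD JV001 against CKD saline, from 0.09 to 1.15 between the sham groups, from 2.48 (without CKD JV001 library 3) to 6.42 in CKD JV001 against sham JV001, and from -1.05 to 3.66 in the interaction. Without library 3 of both CKD groups it was 1.06 in the first and 2.47 in the fourth, and limma gave 0.88 and 1.99 with a pseudocount of 1 and 1.81 and 3.38 with 0.1.

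DESeq2 called 54 genes in CKD saline against sham saline, 67 in CKD JV001 against CKD saline, 3 in sham JV001 against sham saline, 2016 in CKD JV001 against sham JV001 and 2 in the interaction, of which 2, 1, 0, 38 and 0 were list genes. In CKD JV001 against CKD saline, 3043 genes and 32 list genes were called without library 3 of both groups, 2850 and 57 with the replicate block on these 2 groups (chosen after seeing the data), 0 with the replicate block on 12 libraries, and 0 to 3287 and 0 to 50 leaving out 1 library, both highest without CKD saline library 3. In CKD JV001 against sham JV001 the 3 calls became 7 with RLE scaling, 5 with no filter, 12 with the stricter filter, 792 with only the groups compared, 0 with the replicate block, 1433 without library 3 of both groups, 64 and 7 with limma at pseudocounts of 1 and 0.1, and 0 to 1612 leaving out 1 library. List genes called there were 8 with only the groups compared, 9 without library 3 of both groups, 1 with limma at either pseudocount and 0 to 28 leaving out 1 library. The numbers did not pair the libraries in the other contrasts, and the replicate block changed no other call. Scaled to unit variance, 0 members were among the 100 largest loadings, and 7 to 9 when library 3 of CKD JV001 or of CKD saline was left out.

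In CKD JV001 against CKD saline, G0s2 changed sign to -0.0034 with RLE scaling, -0.0036 with DESeq2, -0.0551 with the replicate block on 2 groups, and ran from -0.27 to 0.32 (without CKD JV001 library 3) leaving out 1 library. Cebpb changed sign to -0.0858 without library 3 of both groups, and ran from -0.0977 (without CKD JV001 library 3) to 0.47 leaving out 1 library. The cause of these changes was not tested.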
